A study of Drosophila melanogaster with 2 samples.

Results

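HMG-box and Sox genes encode proteins that bind the minor groove of DNA through an HMG box and bend it. Candidate regions for binding of tagged kay were described here at 8 of them: HmgD, HmgZ, Dsp1, Sox14, Sox15, SoxN, D (Dichaete) and Sox102F. These 8, of 13945 protein-coding genes, were chosen by name with the strength of their kay regions in these data already known. Their counts, signals and ranks are therefore a description, and no test was made on them. For each gene, every region was taken whose summit fell inside the gene or within 3 kb of either end.

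The measurement was chromatin immunoprecipitation and sequencing (ChIP-seq) of kay, the fly Fos protein, which pairs with Jra (Jun) to form the transcription factor AP-1. All samples came from 1 group, whole Drosophila melanogaster embryos of both sexes, 0 to 24 h old, of a transgenic line that stably carries kay with GFP joined to its C-terminal end, and the pull-down was made with an antibody to GFP. There were 2 biological replicates, labelled 2 and 4. The design holds no second genotype, treatment or age, whole embryos mix all cell types and a full day of development, and whether the line also has untagged kay is not given in the sources used here.

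The deposited lists hold 30000 candidate regions from the pooled replicates. These are labelled as peaks and background, the input of the procedure described below, so a candidate need not be a bound region. Each region has a signal, a value per region deposited by the authors, and its rank by signal counts from 1 for the strongest. The irreproducible discovery rate (IDR) procedure, which compares the replicates, left 3860 regions, and these are exactly the 3860 strongest pooled candidates. Of them, 3854 had an overlapping candidate in both replicates, so not every region in the list recurred. The last region kept had a signal of 93.6 and the first one not kept 93.5. Read counts are not part of the lists, so the depth of each sample is unknown and no interval is given with a signal.

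HmgD, HmgZ and Dsp1 are the fly relatives of the vertebrate HMGB proteins, abundant chromatin proteins that bind DNA with little regard for sequence. Dsp1 also works with the NF-kappaB-type factor Dorsal (dl) in repressing genes in the early embryo. Sox proteins recognise short sites instead, variants of AACAAT and ACAAAG. SoxN and D act in the early embryo and in the neuroectoderm, where they are partly redundant, and D is also needed for segmentation. Sox14 is induced by the steroid hormone ecdysone and is needed for dendrite pruning at metamorphosis. Sox15 acts in the mechanosensory bristle lineage, and Sox102F is the fly SoxD gene, with a role in neurons.

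The sequences at 4 kay summits and at 1 isolated AP-1 site are shown first, because most IDR regions of these genes, like most in the whole list, hold no exact AP-1 site. One was found in 1 of 13, or 7.69%, against 11.7% of all IDR regions. They are the plus strand of dm6, 5′ to 3′. In the first 4, capitals mark the 7 bases centred on the summit. None of these holds TGACTCA on either strand, the AP-1 site to which Fos and Jun dimers bind, and the closest match in each has 5 of the 7 letters. The Dsp1 upstream region (X:16332993-16333123) is printed whole, with the summit near its left end. The others are windows of 121 bp around the summit in the Dsp1 intron (X:16335316-16335436), in a Sox102F intron (4:807589-807709) and upstream of SoxN (2L:8825278-8825398). In the last, from the start site of Sox102F (4:834271-834299), capitals mark the AP-1 site itself. The SoxN window and the Sox102F start site belong to candidates outside the IDR list, of ranks 7087 and 7616.
Dsp1 upstream: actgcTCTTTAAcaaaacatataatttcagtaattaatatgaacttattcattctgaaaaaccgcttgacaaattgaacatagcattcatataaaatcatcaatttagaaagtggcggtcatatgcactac
Dsp1 intron: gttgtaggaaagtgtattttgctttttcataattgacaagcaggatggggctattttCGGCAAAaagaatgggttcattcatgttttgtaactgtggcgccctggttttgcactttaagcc
Sox102F intron: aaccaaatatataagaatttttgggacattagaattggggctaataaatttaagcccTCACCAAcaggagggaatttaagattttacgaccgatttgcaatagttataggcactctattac
SoxN upstream: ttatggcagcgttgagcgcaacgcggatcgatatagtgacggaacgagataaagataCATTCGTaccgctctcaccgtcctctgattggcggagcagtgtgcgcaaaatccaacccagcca
Sox102F start site: attgcaggcttTGAGTCAaaagtcattct
Over all 3860 IDR regions, windows of 121 bp around the summit held an exact AP-1 site in 5.57% and a match with at most 1 letter changed in 26.8%, against 2.58% and 22.6% of the other 26140 candidates.

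An IDR region lay at 7 of the 8 genes (87.5%), against 37.5% of all protein-coding genes. SoxN was the one without. The 8 genes have longer windows, at a median of 14.7 kb against 8.17 kb over all protein-coding genes, and long windows hold more summits. The part of window length in the counts was not tested. The members had a median of 1.5 IDR summits and 7.5 candidates each, against 0 and 3 over all genes. The strongest region of a member had a median rank of 916, against 4120 over the 10844 genes that had any candidate. HmgD and HmgZ both enter these counts and medians with the same IDR regions and the same best rank of 12. The 8 values are therefore not independent.

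Counted once, since HmgD and HmgZ overlap, the 8 genes had 13 IDR regions in 10 separate clusters, among 51 candidates. The 13 made up 25.5% of those candidates, while 12.9% of all candidates were IDR regions. The range was wide. HmgD, HmgZ and Sox14 had 4 IDR regions each and ranks of 12, 12 and 14, Dsp1 had 2 with a best rank of 371, and Sox102F, D and Sox15 had 1 each at ranks 1461, 3378 and 3439. D and Sox15 stood next to each other, with signals of 102.5 and 101.3, and their order was reversed in replicate 2 alone.

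**Figure D1:**
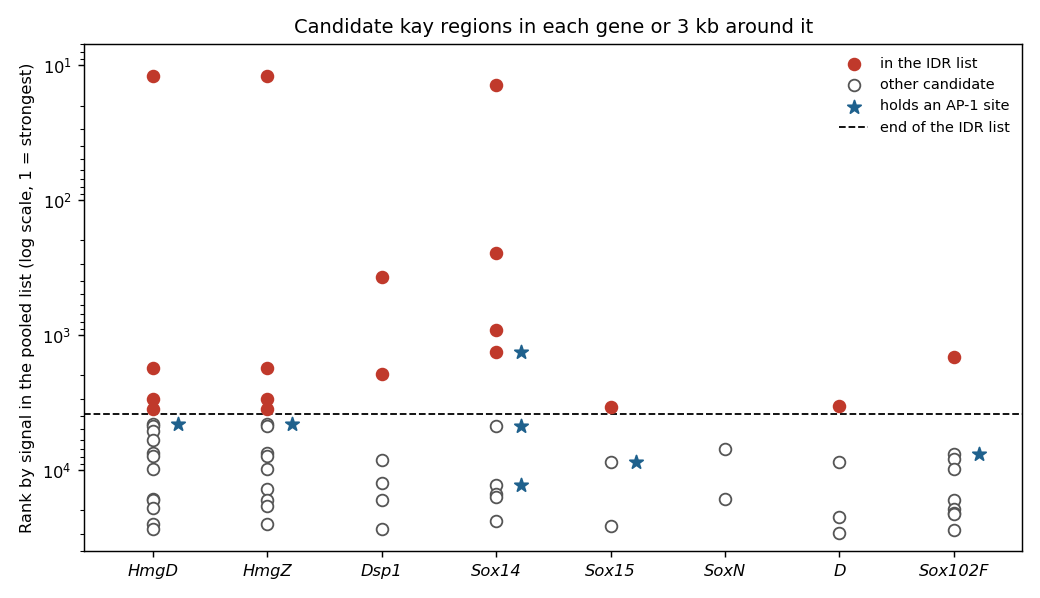
Rank of every pooled candidate at each of the 8 genes (vertical axis, log scale, strongest at the top), with filled red points for IDR regions, open points for other candidates, and a star beside regions that hold an AP-1 site. HmgD, HmgZ and Sox14 reach ranks 12, 12 and 14, SoxN has no point above the dashed line at the end of the IDR list, and 1 star stands beside a red point.

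The strongest region of the set was shared by HmgD and HmgZ, whose gene bodies overlap by 6404 bp in opposite directions on chromosome arm 2R. HmgD (FBgn0004362) spans 21701458 to 21716727 on the plus strand, and HmgZ (FBgn0010228) spans 21697488 to 21707861 on the minus strand. The region at 21703137 to 21703694 had a pooled signal of 1236.8. It had signals of 688.3 in replicate 2 and 557.9 in replicate 4, and the rank was 12 in each of the lists. Its summit at 21703416 lay in introns of both genes, 586 bp upstream of an HmgZ transcription start site (TSS), just outside the 500 bp that defined a promoter here, and 1958 bp inside HmgD from that gene's first TSS. Only 28 protein-coding genes (0.201%) had a region as strong in their window, HmgD and HmgZ among them.

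The other 3 IDR regions at this pair of genes were far weaker and also lay in introns of both. One at 21705892 to 21706347 had a signal of 147.4 and ranked 1778, with 2225 in replicate 2 and 1524 in replicate 4. One at 21704571 to 21705026 had a signal of 109.9 and ranked 2983, with 2600 and 3242, and its summit lay 298 bp from an HmgZ TSS, the only one of the 4 at a promoter, where 54.7% of all IDR regions lay. The last, of signal 98.9 and rank 3555, was a second summit listed in the same interval as the strongest region, 215 bp from its summit. It ranked higher in each replicate, at 662 and 583, than in the pooled list. All 4 were nearest to start sites of HmgZ, and all 4 lie in sequence that both genes cover.

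At HmgD's own first TSS the candidate was weak. Its summit lay 70 bp away, with a pooled signal of 84.2 and rank 4571, 3445 in replicate 2 and 6917 in replicate 4, and it was not in the IDR list. It was also the strongest candidate at any of the 8 genes that missed the list, next to the weakest that entered it, at 98.9. This start-site region held an AP-1 site 39 bp from its summit and a GAGA repeat. None of the 4 IDR regions of the pair held an AP-1 site, its relaxed form TGANTCA, or any of the other motifs searched, while 11.7% of all IDR regions hold an AP-1 site. They were rich in G and C, at 47.3% to 54.8% against a median of 39.0% over all IDR regions, and the one at 54.8% was among the 1.42% of IDR regions with the highest content.

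**Figure D2:**
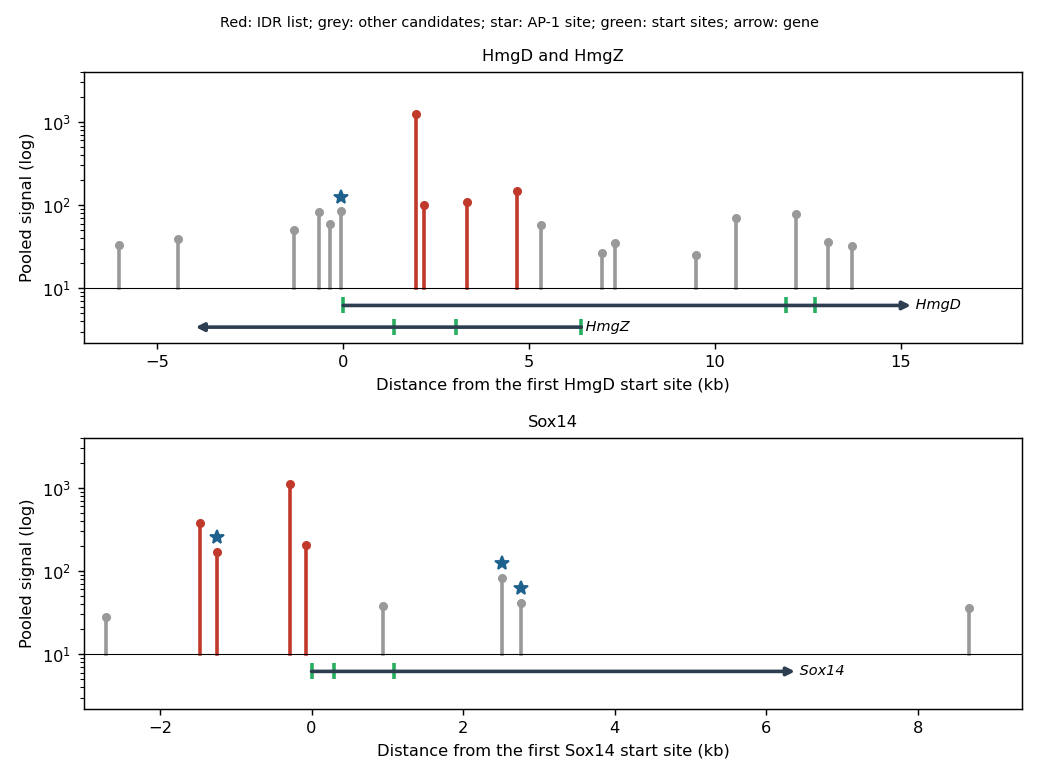
Pooled signal (log scale) of the candidates at HmgD with HmgZ and at Sox14, against distance along the arm from the first start site in kb, with red stems for IDR regions, grey for other candidates, stars for AP-1 sites, green ticks for start sites and arrows for genes. The signal of 1236.8 stands inside both HMG genes and the AP-1 site of that pair stands at the weak HmgD start-site region, while at Sox14 the signals of 1107.6 and 375.0 stand before the gene.

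Dsp1 (FBgn0278608, X 16333612 to 16340624, plus strand) had 2 IDR regions among 6 candidates. The upstream one, whose sequence is shown above, had a pooled signal of 316.0 and rank 371, with 191.1 and rank 352 in replicate 2 and 126.9 and rank 424 in replicate 4. It lay 611 bp before the first Dsp1 TSS, in an intron of the divergent gene CG9921 and 599 bp from a start site of that gene, the outermost start sites being 12 bp apart. At 131 bp wide it was among the 105 IDR regions narrower than 140 bp, where the usual width was 456 bp. The second, at X 16335148 to 16335603, was in a Dsp1 intron 808 bp from the internal TSS and had a signal of 139.7 and rank 1969, with 2362 and 1972 in replicates 2 and 4. The replicates thus ranked both Dsp1 regions alike, each within 1.2-fold. Neither holds an AP-1 site or its relaxed form. The candidate with its summit in the Dsp1 5′ UTR, 390 bp from the TSS, ranked 12548.

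Sox14 (FBgn0005612, 2R 23978801 to 23985177, plus strand) was the Sox gene with the strongest signal, and all 4 of its IDR regions lay before the gene. They occupied the stretch of 1546 bp that separates its first TSS from that of PPP1R15, a divergent neighbour. The region at 23978241 to 23978791 had a pooled signal of 1107.6 and rank 14, with 708.5 and rank 11 in replicate 2 and 407.7 and rank 29 in replicate 4. Its summit lay 289 bp upstream of Sox14. A region as strong was found at 35 genes (0.251%), Sox14 and PPP1R15 included. It has no AP-1 site, and holds 1 relaxed site.

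The same interval was listed with a second summit 216 bp away, 73 bp before the Sox14 TSS, and there the replicates differed widely. It had a pooled signal of 206.0 and rank 926. In replicate 2 it had a signal of 273.5 and rank 148, but in replicate 4 a signal of 15.9 and rank 17718, 120-fold apart in rank. A difference over 100-fold was found at 2 of the 3854 IDR regions with a candidate in both replicates (0.0519%). This second summit was thus strong in replicate 2 and weak in replicate 4. Across the IDR list, 16 intervals are listed with more than 1 summit, and those at HmgD with HmgZ and at Sox14 are both of this kind.

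The other 2 IDR regions before Sox14 sit at the PPP1R15 end and are nearest to its start site. The stronger, at 23977182 to 23977454, had a signal of 375.0 and rank 247, with 256 in replicate 2 and 248 in replicate 4, and lay 72 bp from the PPP1R15 TSS. The weaker, at 23977321 to 23977776, had a signal of 169.8 and rank 1349, with 1219 and 1676, and lay 294 bp from that TSS. The weaker one was the only IDR region of the 13 that held an AP-1 site, at 23977650 to 23977656 and 104 bp from the summit. The promoter end near PPP1R15 was poor in G and C, at 31.9% and 28.3%, against 45.2% at the Sox14 end, and also held the DRE, TATCGATA, the site of the promoter factor DREF. The DRE was found in both regions, which overlap, and in none of the other 11. Inside Sox14 the strongest candidate, in an intron, ranked 4723 with a signal of 82.4 and held an AP-1 site 105 bp from its summit. The same site fell in an overlapping candidate of rank 13030.

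Sox15 (FBgn0005613, 2R 14201390 to 14212413, minus strand) had 1 IDR region, near the end of the list and unequal between replicates. It lay at 14214732 to 14215187 between genes, 2547 bp upstream of Sox15 and nearer to RpS23, a ribosomal protein gene, at 1618 bp. The pooled signal was 101.3 (rank 3439), with 76.5 and rank 2366 in replicate 2 and 22.1 and rank 9907 in replicate 4. In replicate 4 the strongest region was instead the one at the Sox15 start site, 27 bp away, which ranked 5632 there, 21204 in replicate 2 and 8805 in the pooled list. That start-site candidate held an AP-1 site 97 bp from its summit. A far stronger IDR region, of rank 469 and signal 282.9, lies 4807 bp from the gene, outside the 3 kb, and is nearest to RpS23.

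SoxN (FBgn0029123, 2L 8825645 to 8829670, plus strand) had no IDR region, and the closest lay 31301 bp from the gene. Its best candidate, shown above, is at 8825110 to 8825565, 307 bp upstream of the TSS, with a pooled signal of 62.1 and rank 7087. The signal was 37.5 in replicate 2 (rank 7823) and 23.3 in replicate 4 (rank 8989), so the region is weak in both. A second, overlapping candidate 86 bp from the TSS ranked 16544. Neither holds any of the motifs searched. Of all protein-coding genes, 51.1% had a region ranked as high as that of SoxN.

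D (FBgn0000411, 3L 14175610 to 14178620, minus strand) had 1 IDR region, on the far side of the gene from its promoter. It lay at 14174181 to 14174636, between genes, 1201 bp past the 3′ end and 3128 bp from the nearest D TSS. The pooled signal was 102.5 (rank 3378), with 55.5 and rank 4153 in replicate 2 and 47.5 and rank 2916 in replicate 4. At the D start sites there were only very weak candidates of ranks 22454 and 29287, with no match in replicate 4. The D region holds 3 copies of AACAAT and 1 of ACAAAG, counted on both strands, the highest sum among the 13 regions. At least 3 AACAAT with an ACAAAG occurred in 22 of the 3079 IDR regions of the usual width (0.715%). This criterion equals the count of the D region itself. At least 3 AACAAT, with or without an ACAAAG, occurred in 2.57% of the 3079, at least 2 in 12.6% and at least 1 in 45%. The region of rank 1349 before Sox14 also held 3 AACAAT. The stretch at 3L:14174260-14174558 is shown for the cores of the D region, in capitals, 1 ACAAAG and 2 AACAAT on the plus strand.
D downstream: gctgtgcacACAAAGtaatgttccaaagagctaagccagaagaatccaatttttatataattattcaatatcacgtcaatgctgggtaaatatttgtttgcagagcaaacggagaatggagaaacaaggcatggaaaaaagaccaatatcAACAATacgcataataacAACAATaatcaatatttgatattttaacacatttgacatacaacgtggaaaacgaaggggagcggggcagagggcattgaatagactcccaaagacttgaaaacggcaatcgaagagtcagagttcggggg

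Sox102F (FBgn0039938, chromosome 4, 800436 to 834393, minus strand) is the longest of the 8 genes, at 33958 bp, and had 9 candidates. Its 1 IDR region, at 807421 to 807876, lay in an intron 302 bp upstream of an internal TSS. The pooled signal was 164.2 (rank 1461), with 108.4 and rank 1197 in replicate 2 and 59.0 and rank 1994 in replicate 4. This is 1 of 12 IDR regions on chromosome 4, a small and largely heterochromatic chromosome with 503 candidates. The region at the outermost start site was much weaker, with its summit 51 bp away in the 5′ UTR, a pooled signal of 59.1 and rank 7616. It was uneven between replicates, ranking 23103 in replicate 2 and 5421 in replicate 4. It is this weak region, not the strong one, that holds the AP-1 site printed above, at 834282 to 834288 and 57 bp from the summit.

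**Figure D3:**
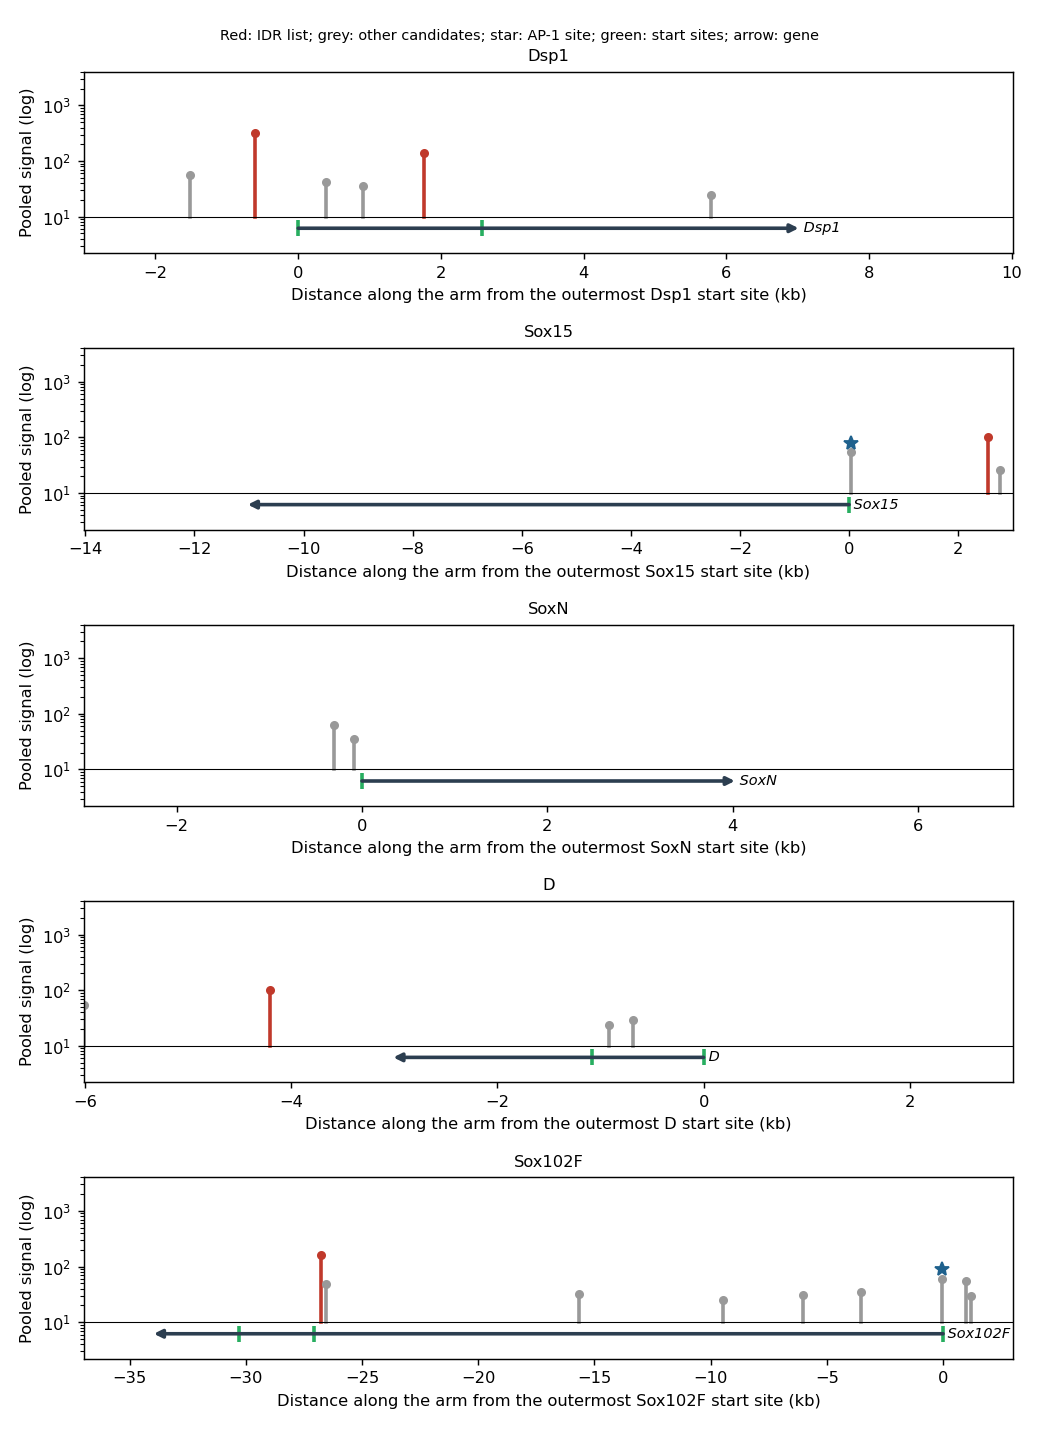
Pooled signal (log scale) of the candidates at Dsp1, Sox15, SoxN, D and Sox102F, against distance along the chromosome from the outermost start site in kb, with red stems for IDR regions, grey for other candidates, stars for AP-1 sites, green ticks for start sites and arrows for genes. Red stems stand away from the outermost start sites in the 4 genes that have them, SoxN has grey stems only, and the stars at Sox15 and Sox102F stand at the start site.

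By position, 6 of the 13 IDR summits (46.2%) were at promoters, no more than 500 bp from a start site, compared with the 54.7% of all IDR regions. These were the 4 before Sox14, of which 2 are nearest to PPP1R15, 1 at HmgZ and 1 at the internal TSS of Sox102F. By annotation, 7 summits were in introns (53.8%, against 45.2% of all) and 6 between genes (46.2%, against 41.1%). None was in an exon, where 5′ UTRs alone held 11.7% of all IDR summits. Of the weaker candidates at these genes, 15 of 38 were at promoters (39.5%, against 27.1% of all candidates outside the IDR list) and 6 in 5′ UTRs (15.8%, against 8.87%).

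An exact AP-1 site was in 1 of the 13 IDR regions (7.69%, against 11.7% of all IDR regions) and in 5 of the 38 other candidates at these genes (13.2%, against 7.25% of all others). With so few regions these shares are not precise, and no difference between them was tested. The 5 candidates hold 4 different sites. Of these, 3 lie at start sites, those of HmgD, Sox15 and Sox102F, and 1 in a Sox14 intron. The relaxed form TGANTCA was in 4 of the 13 (30.8%, against 20.4% of all IDR regions), all 4 before Sox14. These 4 form only 2 of the 10 clusters, and 2 of them are the same interval listed under each of its summits. Among the 38 others TGANTCA was in 10 (26.3%, against 14.8% of all others).

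Of the Sox cores, AACAAT was in 5 of the 13 regions (38.5%), near the 41.5% of all IDR regions, and ACAAAG in 1 (7.69%), against 26.8%. The DRE was in 2 (15.4%, against 6.99%), which overlap and form 1 of the 10 clusters. The Zelda site CAGGTAG, bound by the factor that opens early embryonic chromatin, was in 1, at Sox15 (7.69%, against 2.38%). The GAGA repeat GAGAGAG and the cAMP response element TGACGTCA were in none, against 13.0% and 1.58%. All motifs were searched on both strands over the full width of a region. The 2 TGANTCA matches in the shared Sox14 interval are the same letters listed under each of its summits. Of the 13 regions, 4 share their interval with another summit, so the same sequence enters these shares more than once.

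The replicates ranked most of the strong regions alike. Of the 13, 12 were among the strongest 3860 candidates of replicate 2, 11 among those of replicate 4 and 10 among both. Ranks were within 2-fold of each other for 10 of 13 (76.9%), against 73.9% of all IDR regions, and the median fold was 1.37 against 1.5. The exceptions were the second summit before Sox14 (120-fold), the Sox15 region (4.19-fold) and the strongest Sox14 region (2.64-fold, between ranks 11 and 29). All 3 ranked higher in replicate 2. Of all 51 candidates, 35 overlapped a candidate in both replicates. The matching shares over all regions are not given here, for this count or for those among the strongest 3860.

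**Figure D4:**
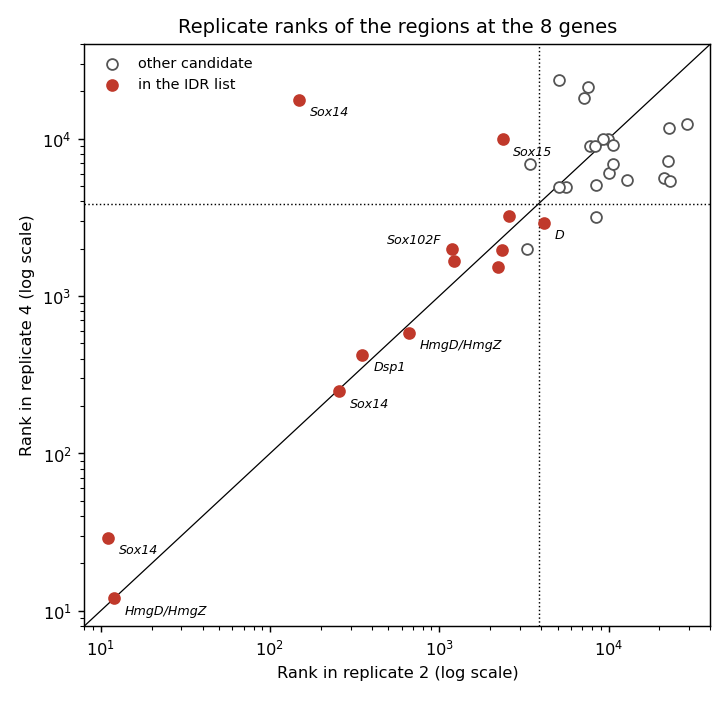
Rank in replicate 2 against rank in replicate 4 (both log scale) for the regions with a candidate in both, red for IDR regions and open for other candidates, with a diagonal of equal ranks and dotted lines at rank 3860. Most red points lie near the diagonal down to rank 12 in both replicates, and the Sox14 point at 148 and 17718 lies farthest from it.

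Genes with the most similar ranks were looked for by the distance between log2 ranks of the strongest region in replicates 2 and 4, over these 2 lists. For HmgZ, whose region is also that of HmgD, the closest were CG11808, CG8079, CG8093, Hex-C and mRpL41, at a distance of 0.346. These 5 share a single region of rank 13, with 15 and 11 in replicates 2 and 4. For Sox14 the closest was PPP1R15, which has the same region, followed by px, at 0.382, with rank 16, and 14 and 26 in the replicates.

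Other genes with an HMG box were described beside them. Of 12, 8 had an IDR region (66.7%, against 37.5% of all protein-coding genes). Over those with a candidate, the best rank had a median of 1418, against 4120. Their median window was 10.8 kb, against 8.17 kb. The strongest was at bbx (bobby sox), rank 260 with signal 367.8 in an intron 218 bp from a TSS. It was followed by tHMG1 and tHMG2, which share a region of rank 461 nearest to the TSS of CCT1, a chaperonin gene, and by cic, the Capicua repressor, at rank 668. TFAM, the mitochondrial HMG protein, followed at rank 1413, nearest to EloB. Then came Sox21b at 1418, through a region nearest to the TSS of Sox21a, 3472 bp away. Next were pan, the fly TCF, at 3357, nearest to RpS3A, and Sox100B at 3511. None of these 12 reached the ranks of HmgD, HmgZ or Sox14. Without an IDR region were Sox21a, which ranked 17121, Bap111 at 5553, mael at 11885 and Ssrp, a subunit of the histone chaperone FACT, with no candidate.

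A list of 12 genes linked to the 8, as partners, regulators or targets, was also counted, under the name of partner genes. Of these, 8 (66.7%) had an IDR region, against 37.5% of all protein-coding genes. The median best rank of the 12 was 1018, against 4120. Their windows are also longer, at a median of 19.1 kb against 8.17 kb, and reach 85.1 kb at pros and 87.2 kb at EcR. The strongest were at brm and osa, which encode subunits of the Brahma chromatin remodelling complex, at rank 46 with signal 767.4 and rank 52 with signal 726.6. The dl region, of rank 132 and signal 508.3, held an AP-1 site. The corepressor gene gro had 5 IDR regions, the strongest at rank 382. EcR and usp, which encode the ecdysone receptor and its partner, ranked 1253 and 2485, and Mical, a Sox14 target in pruning neurons, ranked 783. The pros window reached rank 381 through a region nearest to Irbp. The neuroectoderm factors vnd and ind ranked only 11078 and 18532, Dr 4783 and vvl, a partner of D, 7963.

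Except at Sox15, the candidates nearest to the limit of each window were weak and none was an IDR region. At Sox15 the nearest candidate outside was the IDR region of rank 469. At D, a candidate of rank 8737 was counted at 2998 bp from the gene, and one of rank 24497 at 3242 bp was not. Just outside were also candidates at HmgZ (3090 bp, rank 27566), SoxN (3125 bp, rank 29316), Sox14 (3287 bp, rank 6954) and HmgD (3396 bp, rank 15571). The nearest IDR region left out was the one of rank 469 at Sox15, 4807 bp away. Without the 3 kb around the genes, the IDR regions of Sox14, D and Sox15 and the upstream one of Dsp1 fall away, which leaves 4 genes and 6 regions.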

How the data were processed

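The files used are region lists in narrowPeak format for dm6. In each, the authors deposited a signal value per region, whose unit and scaling between lists are not stated, so signals were ranked within a list only. Per the labels and the text deposited beside the lists, candidates came from alignments of a single replicate, or of the pair, set against 1 control file, and the IDR list from the 3 candidate lists. Per the labels, chromatin was sonicated to 200 to 800 bp. For the aligner and the peak caller, names and versions were not given in the sources at hand. The dm3 lists were not used.

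Coordinates are 1-based, on genome Release 6 with 13945 protein-coding genes and 19607 TSSs on 6 arms in Ensembl release 115. A replicate's value is that of the candidate that overlaps by at least 1 bp with the nearest summit. A candidate of 1 replicate can match more than 1 pooled region. Motifs were searched on both strands, overlaps included. Matches to the AP-1 site with a letter changed were counted after the data were seen. The members and lists were chosen with earlier results of these data known. Named were the members with each IDR region, the owners of nearest TSSs, the other HMG-box and partner genes, and the genes nearest in replicate rank. Tied genes, and those without an IDR region, were named after their values were seen. No test was run, and the code was tested on simulated data. Computation used Python 3.11.15, numpy 2.4.6 and pandas 2.3.3, with figures from matplotlib 3.10.9.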

Additional observations from a re-analysis of the deposited data

How the results depend on the processing

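The counts at these genes depend on small numbers. For most settings the share over all genes or all IDR regions is not given, so whether it moved likewise was not assessed. With no flank around the genes, 4 genes had an IDR region, with 6 regions, 2 at promoters and 0 with an AP-1 site. With the 1930 strongest IDR regions there were 8 regions, and with 1 region per overlapping cluster 0 had an AP-1 site. Promoter summits numbered 2 within 200 bp and 10 within 1000 bp. The AP-1 count was 0 within 50 bp and 0 within 100 bp of the summit, and 4 with TGANTCA. Leaving out a replicate gave 1 to 2 regions with an AP-1 site, 12 to 14 regions, 5 to 7 at promoters and 6 genes each time. These counts come from the list of the other replicate alone. They are not IDR regions, since IDR compares replicates. A flank of 10 kb gave 7 genes and 16 regions. Within 228 bp of the summit, chosen after seeing the data, the count was 1 of 13, against 12.4% of all. No paired analysis was possible because both replicates belong to 1 group. Depth limits every value, since read counts are not in these lists.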
